A study of Mus musculus with 6 samples.

Results

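The regions described are the EWS-FLI1 peaks that lay far from active chromatin: peaks on chromosomes 1 to 19 with no H3K27ac peak of the same cell line within 20 kb, measured between peak edges. They were chosen by that measured distance. There were 209 such peaks among 410 autosomal EWS-FLI1 peaks in ES48 and 190 among 335 in ES49, 399 of the 1295 EWS-FLI1 peaks of both lists. They are called far peaks here, and the other autosomal peaks, 201 in ES48 and 145 in ES49, near peaks. ES48 and ES49 are untreated mouse cell lines of Ewing sarcoma induced by EWS-FLI1, both of Balb/c background, grown in serum-supplemented medium. All groups carry the fusion, so no group lacks it, and the promoter that drives it is not given in the sources used here. ChIP-seq was done with an antibody against the FLAG tag, which stands for EWS-FLI1, and against H3K27ac in both lines, and against H3K27me3 in ES49 alone. Each list comes from 1 library, so values below are descriptions with counting intervals and no test.

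EWS-FLI1 joins a transcription-activating part of EWS to the ETS-type DNA-binding domain of FLI1, an ETS-family transcription factor that recognises GGAA-containing DNA. In human Ewing sarcoma the fusion is known to bind single ETS sites and runs of GGAA repeats, and repeats far from genes can gain enhancer features there. H3K27ac marks active promoters and enhancers, and H3K27me3 is laid down by Polycomb repressive complex 2 on silenced chromatin. A bound place without nearby H3K27ac is thus one where this mark of activity was not called. Positions are in mm9, regions are named by position, and no sequence is shown, since neither genome sequence nor annotation of that build was used.

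The rule itself sets the distance to H3K27ac, which is given as a description. The far peaks of ES48 lay a median of 77.7 kb from the nearest ES48 H3K27ac peak (quartiles 43.1 and 250 kb), and 21 of 209 lay more than 500 kb away. In ES49 the median was 246 kb (quartiles 76.2 and 508 kb), and 51 of 190 lay more than 500 kb away. Just beyond the limit in ES48 were chromosome 9 45948444 to 45948609, at 20278 bp, and chromosome 1 36476558 to 36476731, at 20577 bp. Just within it were chromosome 5 144196573 to 144196752, at 19793 bp, and chromosome 2 169924874 to 169925028, at 19332 bp. In ES49 the limit ran through a row of closely spaced peaks on chromosome 3, with 25455818 to 25456256 at 20793 bp and 25454479 to 25454852 at 19454 bp. The other ES49 peaks next to it were chromosome 1 87511171 to 87511647, at 21049 bp, and chromosome 1 90134243 to 90136363, at 19453 bp. Membership near 20 kb therefore separates neighbours of the same row.

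**Figure D1:**
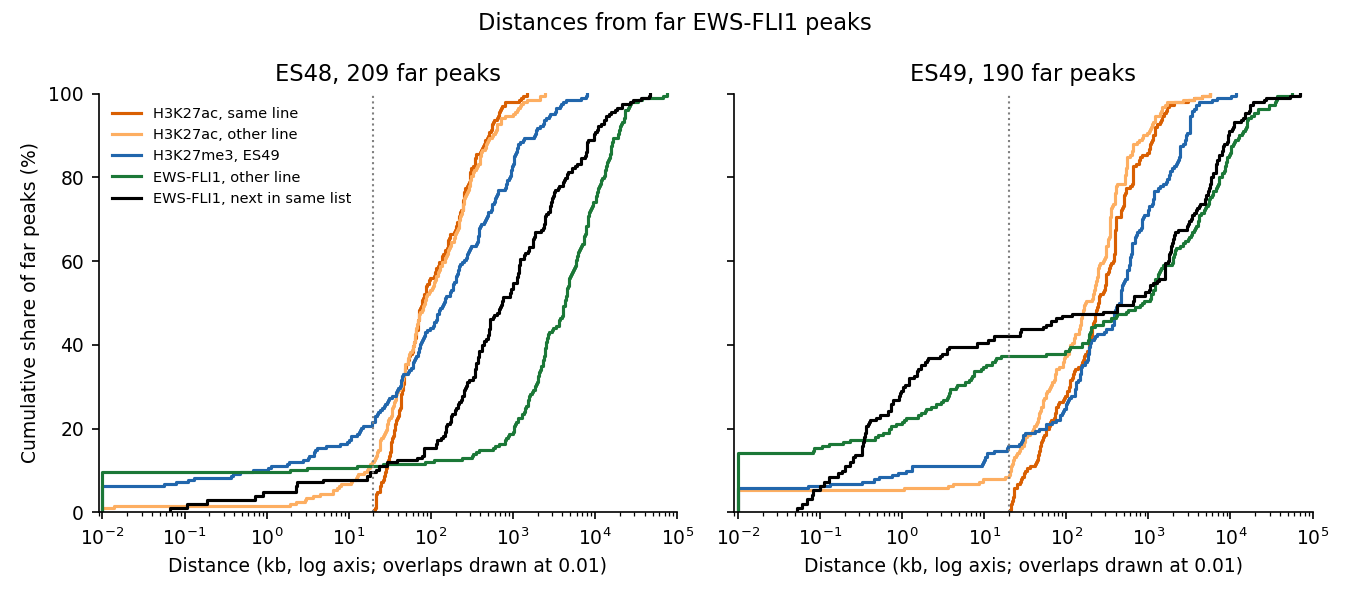
Cumulative share of far EWS-FLI1 peaks (vertical axis, %) within a given distance (horizontal axis, kb, log scale, overlaps drawn at 0.01) of 5 kinds of peak, for the 209 far peaks of ES48 and the 190 of ES49. The dotted line is the 20 kb limit. In ES49 40.5% of the far peaks had a neighbour of their own list within 10 kb, against 7.66% in ES48.

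Most of the autosomal span also lay beyond the 20 kb limit. Between the first and last H3K27ac peak of each autosome, 77.8% of the bases in ES48 and 78.6% in ES49 were more than 20 kb from an H3K27ac peak of the line. That territory held 199 of the 399 ES48 EWS-FLI1 peaks inside the span (49.9%) and 175 of the 320 in ES49 (54.7%). Far peaks thus numbered 1.07 per 10 Mb of far territory in ES48 and 0.929 in ES49, and near peaks 3.76 and 2.82 per 10 Mb of the rest. Every base of the span was counted, and bases where no peak could be called were not taken out. The densities are therefore a description and do not measure a preference of binding. A further 10 far peaks in ES48 and 15 in ES49 lay outside that span.

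The 5 farthest peaks of ES48 were all isolated, with no ES48 EWS-FLI1 peak within 10 kb. Chromosome 1 48383645 to 48383746 was 1472 kb from H3K27ac of either line, and it was the only 1 of the 5 farthest that overlapped an ES49 EWS-FLI1 peak. The others were chromosome 5 40391418 to 40391601 at 1315 kb, chromosome 15 14014839 to 14015022 at 1259 kb, chromosome 14 111011483 to 111011673 at 1168 kb and chromosome 15 15209783 to 15209923 at 797 kb. The scores of these 4 ranked between the 7.2 and the 48.9 percentile of the ES48 list. In ES49 none of the 5 farthest was met by an ES48 EWS-FLI1 peak. Chromosome 14 held 3 of them, 3009830 to 3009929 at 5596 kb, 92334303 to 92334506 at 4516 kb and 91430956 to 91431082 at 3613 kb. Chromosome 1 103608696 to 103608793, at 3056 kb, and chromosome 3 72993663 to 72993854, at 2073 kb, were the other ES49 peaks of this kind. The last of these was only 361 kb from H3K27ac of ES48.

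The score in the fifth column is the authors' own, with no stated scale, so it was read as a percentile rank within each list, from the lowest at 0 to the highest at 100. The far peaks had a median rank of 32.4 in ES48 (95% interval 27.2 to 36.1, n = 209) and 33.4 in ES49 (28.2 to 38.8, n = 190). Near peaks had medians of 37.8 (30.8 to 43.0) and 40.2 (31.6 to 49.8), and the intervals overlap in each line. Ranked among autosomal peaks alone the far medians were 47.3 and 47.4, since the whole lists also rank 204 peaks on chromosomes X and Y in ES48 and 346 in ES49. In ES48 48 of 209 far peaks ranked in the upper 50% of the list, 23.0% against a background of 28.3% of all autosomal peaks. In ES49 59 of 190 did, 31.1% against a background of 35.2%. Scores below 60, close to the lowest listed value of 50.08, were held by 135 far peaks in ES48 (64.6%, background 59.8%) and 45 in ES49 (23.7%, background 22.4%). The far peaks stopped below the top: the highest rank was 82.2 in ES48 and 91.0 in ES49, while near peaks reached 99.7 and 97.1.

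The highest-scoring far peak of ES48 was chromosome 2 181665415 to 181665529, with a score of 190.1. It belonged to a row of 4 and the nearest ES49 EWS-FLI1 peak was 22865 kb away. The next 4 were all shared with ES49, at chromosome 6 3151440 to 3151573 (score 168.0), chromosome 2 98177181 to 98177276 (165.1), chromosome 18 7321315 to 7321512 (146.3) and chromosome 14 45293264 to 45293371 (125.4). In ES49 the list was led by chromosome 13 4560381 to 4560788, with a score of 619.8. It was followed by 3 peaks of a single row on chromosome 18, at 7321226 to 7321540 (516.0), 7320012 to 7320415 (487.3) and 7323079 to 7323204 (385.4), and by chromosome 10 105775325 to 105775589 (371.5). The chromosome 18 row was thus among the highest-scoring far places of both lines.

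Far peaks were narrow, and in ES48 nearly uniform in width. The median width was 180 bp in ES48 (176 to 183) with quartiles of 167 and 190 bp. Widths of 150 to 200 bp made up 151 of the 209 (72.2%), against a background of 67.6% of ES48 autosomal peaks. The ES48 near peaks had a median of 183 bp (181 to 185). In ES49 the far median was 204.5 bp (186 to 235), with quartiles of 117 and 328.5 bp, and the near median was 374 bp (347 to 395). These ES49 intervals do not overlap. The isolated ES49 far peaks had a median of 156 bp (118 to 188) and those in runs, closely spaced as described below, 336 bp (270 to 439). The latter interval overlaps that of the near peaks, which were not split in this way. Under 150 bp were 62 of 190 far peaks in ES49 (32.6%, 26.0 to 39.8) and 5 of 145 near peaks (3.45%, 1.13 to 7.86), against a background of 20%. In ES48 the same class held 13.4% of the far and 13.4% of the near peaks, as of all autosomal peaks, whose background is 13.4%. The 150 bp limit was chosen after the widths were seen.

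**Figure D2:**
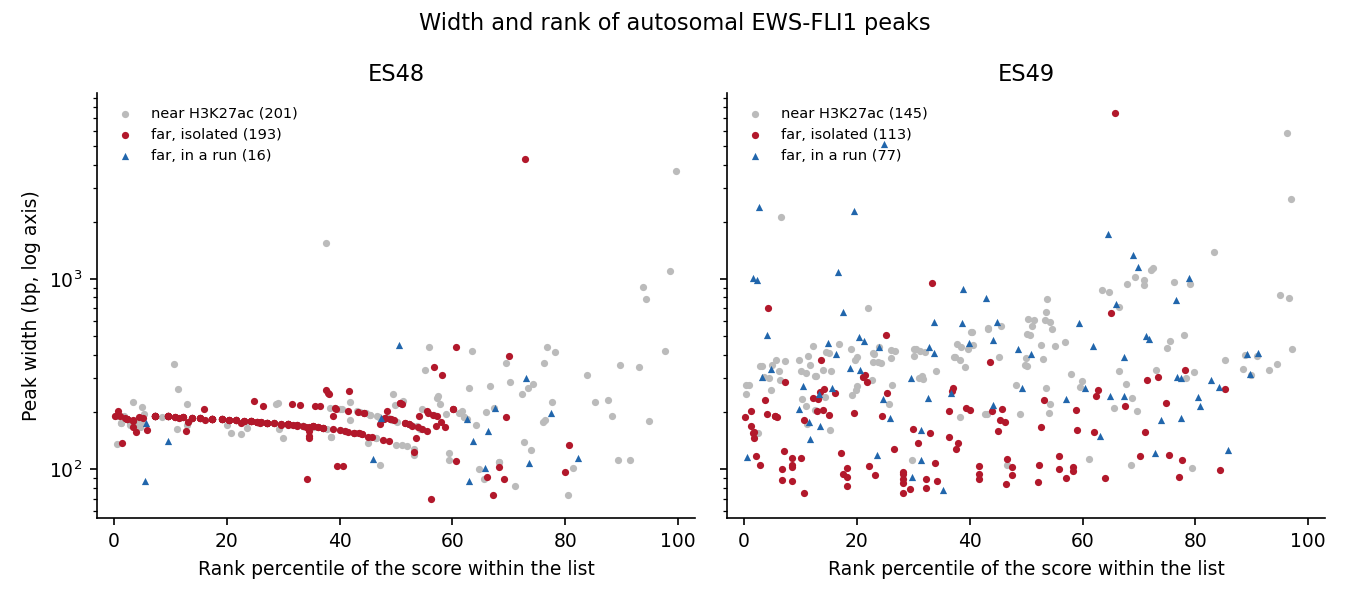
Width (vertical axis, bp, log scale) against the percentile rank of the score within the list (horizontal axis) for autosomal EWS-FLI1 peaks of ES48 and ES49, each point 1 peak. Isolated far peaks of ES48 form a thin descending line at low ranks. In ES49 the isolated far peaks lie below most near peaks in width, with medians of 156 bp and 374 bp. The ES49 far peaks in runs had a median of 336 bp, and the near peaks were not split by runs.

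Among weak far peaks of ES48, score and width were tied together. Of the 161 far peaks in the lower 50% of the ES48 list, 108 had a score that another of them also had. There were 31 such repeated scores, and in 24 of them, covering 80 peaks, every peak had the same width. All 8 peaks scored 54.51 were 184 bp wide, the 7 scored 53.22 were 191 bp wide, and the 5 scored 56.25 were 175 bp wide. Along such a series, each base less of width went with a slightly higher score, as in 54.7 at 183 bp, 54.89 at 182 bp and 55.08 at 181 bp. The near peaks of ES48 had this pattern too, with 21 of 24 repeated scores having 1 width each. In ES49 only 10 scores repeated among the 131 lower far peaks, and 1 of them had a single width. The ranks of these peaks are therefore not independent of their widths. The pattern was noticed after the data were seen.

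Most of the narrow ES49 far peaks stood alone. The 62 far peaks under 150 bp had a median width of 101.5 bp, and 48 of them had no other ES49 EWS-FLI1 peak within 100 kb. Of all 190 ES49 far peaks, 46.8% (39.6 to 54.2) did have one within 100 kb. The next ES49 peak was a median of 2032 kb away (1616 to 5273). For far peaks of 150 bp or more the median was 2.46 kb (1.02 to 279), and over all autosomal ES49 peaks 27.6 kb (1.69 to 413). Only 2 of the 62 (3.23%, 0.393 to 11.2) overlapped an ES48 peak, against 25 of 128 far peaks of 150 bp or more (19.5%, 13.1 to 27.5). In ES48 the order was the other way: 11 of 28 far peaks under 150 bp were shared (39.3%, 21.5 to 59.4) and 9 of 181 wider ones (4.97%, 2.30 to 9.23). The 11 narrow ones included chromosome 2 98177181 to 98177276, 96 bp wide, and chromosome 1 48383645 to 48383746, 102 bp wide. The narrow ES48 far peaks also ranked higher, with a median of 53.4 (45.1 to 65.8) against 29.6 (25.3 to 33.5) for the wider ones. In ES49 these medians were 31.1 (26.6 to 38.0) and 36.5 (25.3 to 44.05). Of the 28 narrow ES48 far peaks, 8 had an ES48 neighbour within 10 kb. Width was thus not separated from rank or spacing. Shares for near peaks of these widths were not computed, and the difference between the lines was not tested.

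Far peaks were spaced differently in the lists. In ES48 the next EWS-FLI1 peak of the same list was a median of 732 kb away (507 to 1138), and 16 of 209 far peaks had a neighbour within 10 kb (7.66%, 4.44 to 12.1, background 14.9%). In ES49 77 of 190 did (40.5%, 33.5 to 47.9, background 48.7%). The median gap of 655 kb in ES49 (27.6 to 1592) lies between these closely spaced peaks and the rest, with quartiles of 0.733 kb and 5028 kb. Peaks of a list less than 10 kb apart are called a run here. The 209 ES48 far peaks formed 193 single places and 6 runs, and the 190 ES49 far peaks formed 113 single places and 21 runs, of which 9 held 5 or more EWS-FLI1 peaks. Peaks of a run share their surroundings. The shares of peaks count each of them, while the counts of places take a run as 1. When the EWS-FLI1 peaks of ES48 and ES49 are joined across gaps under 500 kb, 6 autosomal loci have 10 peaks or more. They were known from earlier work on these data. They contained 8 ES48 far peaks (3.83%, background 6.83%) and 49 ES49 far peaks (25.8%, background 29.6%). Without them the ES49 share with a neighbour was 26.2%.

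The ES49 run with the most far peaks lay at chromosome 1 85258395 to 85282453. It held 13 ES49 EWS-FLI1 peaks in 24.1 kb, with gaps of 61 to 8671 bp, 379 kb from ES49 H3K27ac. ES48 had 5 peaks there, the largest ES48 run of far peaks, at 85273511 to 85282353. All 5 overlapped ES49 EWS-FLI1 peaks. The second ES49 run, at chromosome 8 19938225 to 19950773, held 7 far peaks whose widths had a median of 780 bp. ES48 had 1 peak in it. The third, with as many far peaks, lay at chromosome 1 87481108 to 87523878. It held 18 peaks of which 7 were far, and part of it carried H3K27ac. In ES48 the next runs were the 4 peaks at chromosome 2 181663742 to 181665529 and 3 pairs of far peaks, at chromosome 18 7320277 to 7321512, chromosome 17 27518936 to 27521596 and chromosome 14 45290744 to 45293371. The chromosome 2 row, at gaps of 108 to 993 bp, had no peak of ES49 EWS-FLI1, of H3K27ac or of H3K27me3 in it.

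**Figure D3:**
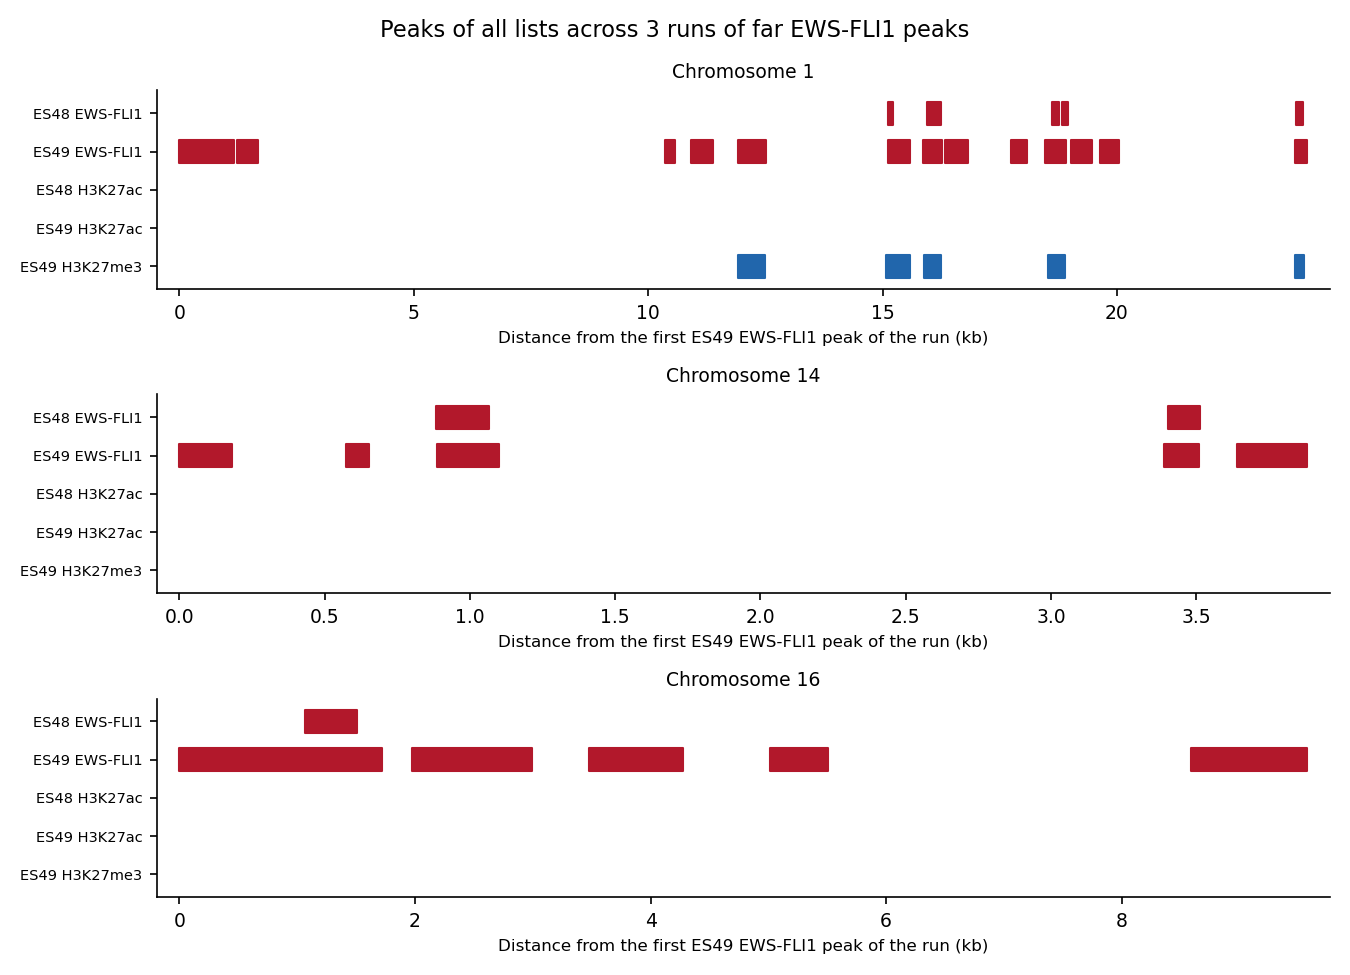
Peaks of all 5 lists (rows) across 3 runs of far ES49 EWS-FLI1 peaks, on chromosomes 1, 14 and 16, drawn to scale along the distance in kb from the first ES49 peak of the run. In each run every ES48 EWS-FLI1 peak overlaps an ES49 peak, no H3K27ac peak is present, and H3K27me3 peaks are present in the chromosome 1 run alone.

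Some smaller ES49 runs held fewer ES48 peaks, and others held none. All runs named in this paragraph, among them those drawn on chromosomes 14 and 16, were chosen after the data were seen. At chromosome 14 45289860 to 45293741 ES49 had 5 peaks of 78 to 241 bp and ES48 had 2, both overlapped. At chromosome 18 7320012 to 7323204 the numbers were 5 and 2. At chromosome 16 3232227 to 3241801 ES49 had 5 peaks of 496 to 1722 bp and ES48 had 1. The runs at chromosome 8 72123011 to 72129497, with 6 ES49 peaks, and chromosome 1 85078279 to 85087781, with 5, held no ES48 EWS-FLI1 peak. Over all runs, 13 of the 21 in ES49 contained or touched an ES48 EWS-FLI1 peak (61.9%, 38.4 to 81.9) and 8 did not, against 10 of the 113 single ES49 places (8.85%, 4.33 to 15.7). In ES48 the counts were 3 of 6 runs and 11 of 193 single places (5.70%, 2.88 to 9.97). A run is longer than a single peak, so it can meet more peaks of the other list.

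Few far peaks were common to the lines. In ES48 20 of 209 overlapped an ES49 EWS-FLI1 peak (9.57%, 5.94 to 14.4, background 17.1%) and in ES49 27 of 190 overlapped an ES48 peak (14.2%, 9.58 to 20, background 18.5%). Among near peaks the shares were 24.9% (19.1 to 31.4) in ES48 and 24.1% (17.4 to 31.9) in ES49. The far and near intervals are apart in ES48 and overlap in ES49. A further 13 ES49 far peaks lay within 1 kb of an ES48 peak without touching it, for a total of 40 (21.1%, background 30.1%), and no further ES48 far peak did. Joined across lines at 10 kb, the far peaks formed 317 places, of which 184 held ES48 far peaks alone, 118 ES49 far peaks alone and 15 both (4.73%). This count leaves out near peaks, so a place of 1 line alone can still hold a near peak of the other. Overlapping pairs that were far in only 1 line numbered 9 for ES49 and 1 for ES48. No matching share of places was computed for near or all autosomal peaks. For the ES48 far peaks that were not shared, the median distance to the nearest ES49 EWS-FLI1 peak was 4806 kb.

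The shared far peaks stood higher in their lists than the others. In ES48 their median rank was 64.7 (57.0 to 69.4, n = 20) against 30.8 (26.1 to 34.6, n = 189). In ES49 it was 71.8 (60.4 to 78.1, n = 27) against 29.4 (24.0 to 33.6, n = 163). Read the other way, 15 of the 48 upper far peaks of ES48 were shared (31.2%, 18.7 to 46.3) and 5 of the 161 lower ones (3.11%, 1.02 to 7.10). In ES49 21 of 59 were shared (35.6%, 23.6 to 49.1) and 6 of 131 (4.58%, 1.70 to 9.70). The upper far peaks of ES48 with no ES49 counterpart still numbered 33. That shared peaks outscore others is a feature of both whole lists, seen in earlier work on these data, so this is no separate evidence.

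The 29 overlapping pairs with a far peak in at least 1 line were far in both lines in 19 cases, in ES49 alone in 9 and in ES48 alone in 1. In 19 of the 29 both members ranked above 50. The pairs with ES48 far peaks that ranked highest over both lists were chromosome 18 7321315 to 7321512 (ranks 77.5 in ES48 and 89.7 in ES49), chromosome 2 98177181 to 98177276 (80.0 and 82.7) and chromosome 18 7320277 to 7320416 (63.7 and 89.1). They were followed by chromosome 14 45293264 to 45293371 (73.5 and 72.8) and chromosome 3 4743673 to 4743861 (69.4 and 74.7). For ES49 far peaks the highest pair was chromosome 13 4560381 to 4560788 (ranks 89.7 in ES48 and 91.0 in ES49). Next were chromosome 18 7321226 to 7321540 (77.5 and 89.7) and chromosome 2 98177091 to 98177385 (80.0 and 82.7). Chromosome 10 105775325 to 105775589 (76.1 and 85.3) and chromosome 18 68851728 to 68851844 (89.3 and 70.2) came after them. Some pairs were uneven: chromosome 6 3151440 to 3151573 ranked 80.6 in ES48 and its ES49 partner 21.4, while chromosome 8 19946491 to 19946628 ranked 1.5 in ES48 and its partner 76.5. In all 20 ES48 cases the ES49 partner was the wider peak, with medians of 140 bp and 340 bp, and 13 ES48 peaks lay wholly inside it.

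**Figure D4:**
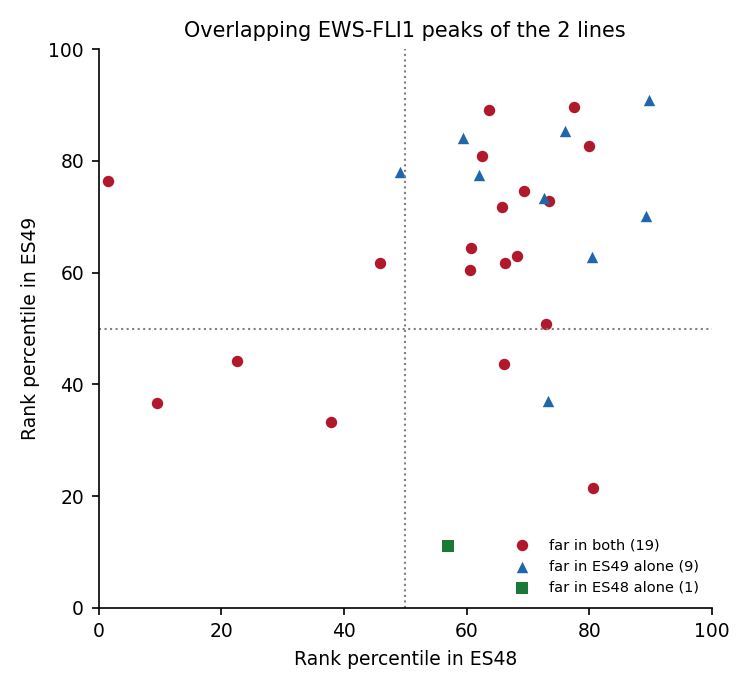
Percentile rank in ES48 (horizontal axis) and in ES49 (vertical axis) of the 29 overlapping EWS-FLI1 pairs with a far peak in at least 1 line, each point 1 pair, with dotted lines at 50. Of the 29, 19 lie above 50 in both lists, and the 9 pairs far in ES49 alone include 7 of these.

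Most far peaks had no H3K27ac of the other line within 20 kb either, as did most of the autosomal span. An H3K27ac peak of ES49 lay within 20 kb of 25 of the 209 ES48 far peaks (12.0%, 7.89 to 17.1, background 48.3%), and an ES48 one within 20 kb of 16 of the 190 ES49 far peaks (8.42%, 4.89 to 13.3, background 47.2%). These backgrounds include the near peaks, of which 86.1% in ES48 had ES49 H3K27ac within 20 kb. Of the span described above, 78.6% of bases in ES49 and 77.8% in ES48 were more than 20 kb from H3K27ac of that line. A share of bases and a share of peaks are not the same quantity. Where the lines have H3K27ac peaks in common this measure is not independent of the rule, so the shares are a description. The distances to H3K27ac of the line itself and of the other line had a Spearman rho of 0.76 over the 209 ES48 far peaks and 0.74 over the 190 in ES49. These are across peaks, which share libraries and runs, and carry no test. H3K27ac of ES49 overlapped 2 of the 209 ES48 far peaks (background 12.2%), chromosome 2 157522352 to 157522531, in a 781 bp peak, and chromosome 9 35112792 to 35113183, in a 530 bp peak.

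At 10 ES49 far peaks an ES48 H3K27ac peak lay directly on the bound place (5.26%, 2.55 to 9.47, background 28.1%). ES48 also had an EWS-FLI1 peak at 8 of the 10. These acetylated peaks were narrow, with widths of 174 to 933 bp and a median of 333.5 bp, against 1475 bp over the ES48 H3K27ac list. That median counts an acetylated peak once for each far peak it met. A 490 bp peak on chromosome 18 met both 85885404 to 85885671 and 85885724 to 85885993. Their scores were low too, at percentiles of 4.7 to 29.0 of that list. The EWS-FLI1 peaks themselves were mostly high, with a median rank of 75.4 in ES49. They included the highest-scoring far peak of ES49, chromosome 13 4560381 to 4560788, which lay 643 kb from ES49 H3K27ac and met a 379 bp ES48 H3K27ac peak at 4560423 to 4560801. Chromosome 10 105775325 to 105775589 met one of 203 bp, and chromosome 18 68851728 to 68851844 one of 212 bp. At those 3 places ES49 H3K27me3 was called as well, so 4 of the 5 lists had a peak there. Chromosome 6 67614497 to 67614796, chromosome 7 29279122 to 29279454 and chromosome 9 110183653 to 110183958 had EWS-FLI1 of both lines and H3K27ac of ES48 without H3K27me3. These places were picked out after the data were seen, and the part that enrichment with any antibody plays in them was not tested.

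H3K27me3 was called at few far peaks. In ES49 11 of 190 overlapped it (5.79%, 2.93 to 10.1, background 8.66%), and in ES48 13 of 209 overlapped the ES49 peaks (6.22%, 3.35 to 10.4, background 10.7%), a comparison across lines. Near peaks had shares of 12.4% (7.53 to 18.9) and 15.4% (10.7 to 21.2). H3K27me3 covered 0.705% of the far territory in ES49 and 0.684% in ES48, where a share of bases and a share of peaks are not the same quantity. The median distance to H3K27me3 was 449 kb in ES49 (287 to 554) and 143 kb in ES48 (85.4 to 211). In ES48 36 of 209 far peaks lay more than 1 Mb from it (17.2%, 12.4 to 23.0, background 13.9%). In ES49 53 of 190 did, a count given here without its background. The upper quartile of the ES49 distance was 1164 kb for far peaks, 742 kb for near peaks and 893 kb over all autosomal peaks. H3K27me3 lay within 20 kb of 30 far peaks in ES49 (15.8%, background 21.2%) and 45 in ES48 (21.5%, background 23.4%). Near peaks were a median of 386 kb (310 to 403) and 130 kb (93.7 to 203) away, close to the far values of their own line.

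The 11 ES49 overlaps with H3K27me3 lay at 6 places and the 13 of ES48 at 9. The chromosome 1 run from 85258395 to 85282453 gave 5 of the 11 ES49 and 5 of the 13 ES48 cases. The highest-ranking of them there were 85273502 to 85273984 and 85276869 to 85277311 in ES49. Those of ES48 were 85273511 to 85273611, 85274335 to 85274637, 85277003 to 85277161 and 85277229 to 85277341. Among isolated far peaks 2 of 113 in ES49 (1.77%, 0.215 to 6.25) and 8 of 193 in ES48 (4.15%, 1.81 to 8) overlapped H3K27me3. The 5 highest-ranking of ES49 further held the peaks on chromosomes 13, 10 and 18 named above, and those of ES48 chromosome 18 80498520 to 80498665. Of the shared far peaks 7 of 27 in ES49 (25.9%, 11.1 to 46.3) and 5 of 20 in ES48 (25%, 8.66 to 49.1) overlapped H3K27me3, against 4 of 163 (2.45%, 0.673 to 6.16) and 8 of 189 (4.23%, 1.84 to 8.17) of the rest. The ES48 value rests on the chromosome 1 run: all 5 cases are in it, and without it the counts were 0 of 15 shared and 8 of 189 other far peaks. In ES49 4 of the 7 are in it, and without it the counts were 3 of 23 (13.0%, 2.78 to 33.6) and 3 of 154 (1.95%, 0.404 to 5.59).

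Both lines had far peaks on 18 of the 19 autosomes, in different shares. Chromosome 5 gave 48 of the 209 ES48 far peaks (23.0%, 17.4 to 29.3), all isolated and none shared, spread from 7.829 to 151.8 Mb at a median gap of 439 kb, with a median width of 177 bp. It gave 21.4% of the ES48 near peaks too, and 8.20% of the autosomal ES48 H3K27ac peaks. In ES49 chromosome 5 gave 9 of 190 far peaks (4.74%, 2.19 to 8.80) and 15.9% of the near peaks. The leading chromosome of ES49 was chromosome 1, with 40 far peaks (21.1%, 15.5 to 27.5), of which 28 lay in runs. It gave 11.7% of the ES49 near peaks. In ES48 chromosome 1 came after chromosome 5, with 29 far peaks (13.9%, 9.49 to 19.3) and 6.47% of the near peaks. In ES49 chromosome 8 came next with 25 (13.2%, against 3.45% of the near peaks), of which 14 lay in runs. Outside the loci of at least 10 peaks the ES49 counts on chromosomes 1 and 8 were 10 and 7, and chromosome 14, with 17 far peaks against 1 near peak, then led. Chromosome 13 had 0 far peaks in ES48 and 8 in ES49, beside 2 and 4 near peaks. Far peaks that began below position 4 Mb numbered 7 in ES48 (3.35%, background 2.2%) and 13 in ES49 (6.84%, background 3.88%), a class chosen after the data were seen. Widths above 1 kb were found for 1 far peak in ES48 (background 0.976%) and 10 in ES49 (background 5.07%).

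**Figure D5:**
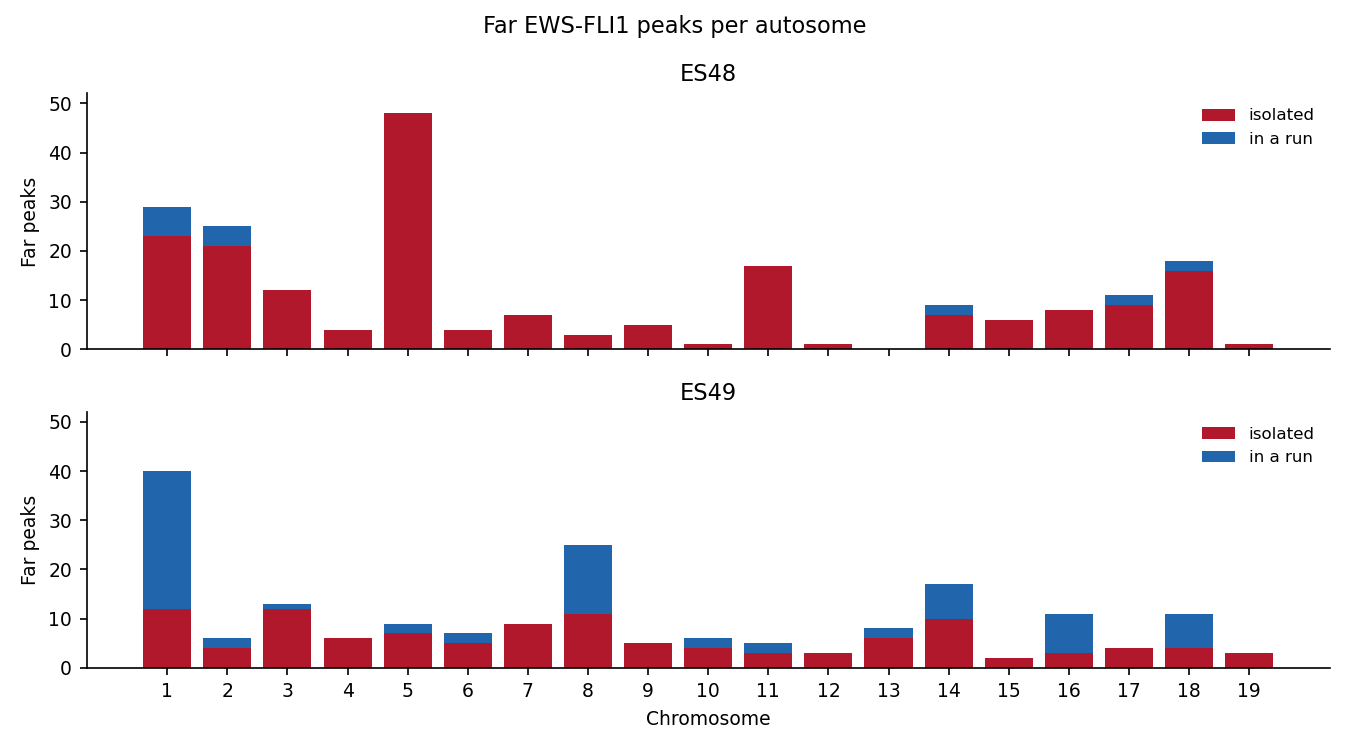
Number of far EWS-FLI1 peaks (vertical axis) on each autosome (horizontal axis) in ES48 and ES49, split into isolated peaks and peaks in runs. ES48 has 48 on chromosome 5, all isolated, and ES49 has 40 on chromosome 1, of which 28 lie in runs.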

How the data were processed

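Of the 6 samples, 5 gave the ChIP-seq peaks analysed, 1 library each; the ES49 input was not analysed here. Per the submitters' processing notes, Bowtie 1.1.1, SAMtools 1.2 and mm9 were used. The deposited lists hold a score per peak, the authors' own, and peak names that point to a MACS program, with settings not given in the sources used here. Peak lists hold no read counts, so depth is unknown.

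Distances are between peak edges, and an overlap is at least 1 bp. Shares carry 95% Clopper-Pearson intervals and medians 95% binomial order-statistic intervals, covering counting error only; neighbouring peaks are not independent, so they are too narrow. A background is the share of all autosomal EWS-FLI1 peaks of that list. No test was made, and interval comparisons are descriptive. The regions, rules and loci were chosen with earlier results of these data known. Regions named per line, by rule: the 5 highest-scoring, the 5 farthest from H3K27ac, the 5 shared and 5 H3K27me3-overlapping far peaks ranking highest, the 3 runs with most far peaks (ties included) and the 2 peaks either side of 20 kb; others are marked. Distances and intervals were tested on simulated data. Alternatives are in the closing section. Tools were scipy 1.17.1, pandas 2.3.3, numpy 2.4.6 and matplotlib 3.10.9 in Python 3.11.15. The gene and promoter tables at hand are of another build and were not used.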

Additional observations from a re-analysis of the deposited data

How the results depend on the processing

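No paired analysis was possible because each group is 1 library with no replicate number in the labels. Of 128 values recomputed under alternatives, 98 stayed within 1.5 times (counts) or inside the interval of the reported value. They include all 14 with no H3K27ac of either line nearby and all 16 with the distance to H3K27ac taken between peak centres. In those 16 the distances to H3K27me3 and EWS-FLI1 stayed between edges. The far peaks then numbered 211 in ES48 and 191 in ES49, so the other values had little room to move. The other 30 moved, and the cause was not tested. A setting added after seeing the data left out the chromosome 1 run, which took the H3K27me3 overlap of shared ES48 far peaks to 0%. With the upper 50% of each EWS-FLI1 list by score, the far peaks numbered 48 in ES48 and 59 in ES49, the shared share was 31.2% and 35.6%, the median rank, raised by construction, 58.4 and 68.9, the median width 173.5 and 242 bp, and the share with a neighbour 22.9% and 50.8%. In ES49 the H3K27me3 overlap was then 10.2% and the share with ES48 H3K27ac within 20 kb 16.9%. Counting only the upper 50% of H3K27ac peaks gave 15.6% shared and 13.0% with a neighbour in ES48, and in ES49 49.6% with a neighbour, a width of 242.5 bp and 1.25% with ES48 H3K27ac within 20 kb. At a limit of 10 kb, H3K27ac of the other line lay within 20 kb of 25.4% in ES48 and 17.1% in ES49, and at 50 kb ES48 had 135 far peaks. Without the loci of at least 10 peaks, ES49 had 26.2% with a neighbour, a width of 182 bp, an H3K27me3 overlap of 2.84% and a distance to H3K27me3 of 582 kb. Ranks among autosomal peaks were 47.3 and 47.4. Shared within 1 kb was 21.1% in ES49, a neighbour within 1 kb 28.9% in ES49 and a neighbour within 100 kb 15.3% in ES48. Unknown depth limits any comparison of peak numbers between the lines.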

Other observations

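Some far peaks lay at the very start of the assembled chromosomes and were chosen after their values were seen. Beside the 7 in ES48 and 13 in ES49 that began below position 4 Mb there were 2 and 0 near peaks. On chromosome 11 ES48 had a 4306 bp peak at 3041257 to 3045562, and ES49 had 3 peaks beside it, at 3030644 to 3038140 (7497 bp), 3049428 to 3051716 (2289 bp) and 3052059 to 3054443 (2385 bp), none of which overlapped the ES48 peak. They were among the 11 far peaks of either line wider than 1 kb, 1 in ES48 and 10 in ES49. On chromosome 16 ES48 had peaks at 3115683 to 3115771 and 3233293 to 3233732, and ES49 had 1 at 3113687 to 3113761 and 5 from 3232227 to 3241801. At chromosome 6 3151440 to 3151573 and chromosome 18 3117912 to 3118162 both lines had a peak.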
